A study of Mus musculus with 4 samples.

Results

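Elastic fibre and microfibril genes were read from RNA sequencing of mouse sciatic nerve, in the 10 genes Eln, Fbn1, Fbn2, Fbln1, Fbln2, Fbln5, Mfap4, Mfap5, Efemp1 and Efemp2, chosen by gene symbol from the 50593 genes of the deposited table. All 10 were found, each on 1 row, and all 10 had a mean level of at least 1 FPKM (fragments per kilobase of exon, normalised for the number of fragments sequenced). The labels give 4 samples, 2 of each genotype, HSF V30M and HSF WT, from 6-month-old animals of strain 129S1/SvImJ. According to the study's methods, both groups carry a heterozygous deletion of Hsf1, the gene of a transcription factor of the heat shock response. HSF V30M mice carry in addition a human transgene for transthyretin with the V30M change, which causes amyloidosis of peripheral nerve, and lack the endogenous Ttr gene, whereas HSF WT mice were the wild-type controls without the transgene. The promoter of the transgene is not given in the sources used here, and the effect of the transgene and that of the missing mouse gene cannot be told apart in this design. The study compared both groups to look at gene expression in the nerve of this disease model.

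Each gene has a single FPKM value for each group, estimated with Cuffdiff over the libraries of that group. Values per mouse were not analysed here and the authors' own test columns were not used, so every difference is given as a description of these libraries without a replicate check. Differences are given as log2 of HSF V30M divided by HSF WT after adding 1 FPKM to each value, called the log2 ratio, a scale that understates the difference of low genes. A gene is called past the fold when this ratio is beyond 1.5-fold in either direction. The names HSF V30M and HSF WT stand for the groups so labelled, since mouse Ttr, which HSF V30M mice lack by design, was listed at 6.10 FPKM in the group labelled HSF V30M and at 0 in the group labelled HSF WT. The table does not tell reads of the human transgene from reads of mouse Ttr. Hsf1 was at 7.94 FPKM in HSF V30M and 15.0 FPKM in HSF WT, a log2 ratio of -0.84 past the fold, although the methods give both groups the same heterozygous deletion.

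Elastic fibres give tissues their recoil. Elastin forms their core, and a sheath of microfibrils built from fibrillins serves as the scaffold on which elastin is laid down and then cross-linked by lysyl oxidases. Fibulins join elastin to the microfibrils and help to place the cross-linking enzymes, while microfibril-associated proteins bind along the fibrils, which also hold latent transforming growth factor beta. In peripheral nerve such fibres are known from the connective tissue sheaths and from the walls of blood vessels.

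The promoter windows of the short fibulins Fbln5, Efemp1 and Efemp2 are shown because these close relatives include Fbln5, the gene with the highest ratio between the groups. The windows are the 250 bases before a start site in RefSeq, build GRCm38.p6, at chr12:101819120-101819369 on the minus strand for Fbln5, chr11:28852955-28853204 on the plus strand for Efemp1, and chr19:5473696-5473945 on the plus strand for Efemp2. They are written 5′ to 3′ along the strand of the gene, and capitals mark every match on either strand to the GC box GGGCGG, the CCAAT box CCAAT, the TATA box TATAAA, the AP-1 motif TGANTCA or the heat shock element GAANNTTC.
Fbln5: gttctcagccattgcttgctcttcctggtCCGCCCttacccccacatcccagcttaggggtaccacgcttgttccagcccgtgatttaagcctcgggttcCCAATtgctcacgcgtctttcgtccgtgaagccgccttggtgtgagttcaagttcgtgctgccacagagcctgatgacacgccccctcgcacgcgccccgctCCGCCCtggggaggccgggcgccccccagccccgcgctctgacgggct
Efemp1: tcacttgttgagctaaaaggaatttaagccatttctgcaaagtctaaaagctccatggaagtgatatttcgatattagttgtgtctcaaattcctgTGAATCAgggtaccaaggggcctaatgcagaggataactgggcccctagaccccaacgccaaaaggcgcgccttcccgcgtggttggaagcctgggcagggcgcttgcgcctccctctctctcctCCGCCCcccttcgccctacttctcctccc
Efemp2: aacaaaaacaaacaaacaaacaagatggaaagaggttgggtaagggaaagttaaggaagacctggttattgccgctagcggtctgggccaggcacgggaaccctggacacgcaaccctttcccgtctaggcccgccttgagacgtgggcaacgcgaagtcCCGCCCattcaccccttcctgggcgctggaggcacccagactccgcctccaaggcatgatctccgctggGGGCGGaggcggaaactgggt

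The Fbln5 window held 2 GC boxes and 1 CCAAT box, the Efemp1 window 1 GC box and 1 AP-1 motif, and the Efemp2 window 2 GC boxes. Among the 32851 windows of the same length in the RefSeq table, 32.7% held the GC box, 33.8% the CCAAT box, 12.4% the TATA box, 6.75% the AP-1 motif and 6.69% the heat shock element. The GC content was 65.2% in the Fbln5 window, 53.6% in the Efemp1 window and 59.2% in the Efemp2 window, where the median over all windows was 52.4%. Another Fbln5 window, not printed, held none of these motifs and had a GC content of 49.6%. Efemp2 windows at other start sites, also not printed, held 5 GC boxes each, with GC contents of 75.6% and 78.8%. These windows, at chr19:5474440-5474689 and chr19:5474485-5474734, overlap and hold the same GC boxes, some of which overlap each other. Both lie wholly inside the gene. Windows were read for 6 of the 10 genes, 10 windows in all, and Eln, Fbn2, Mfap4 and Mfap5 were not among them. None of the 10 windows had a TATA box or heat shock element match, and the other 7 are not printed. These matches describe the letters of the windows and are no evidence of binding.

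The 10 genes spanned a wide range of levels, with Mfap5 the highest and Fbn2 the lowest in both groups. The highest level was 244 times the lowest in HSF V30M and 165 times in HSF WT, on the FPKM scale, which is per length of transcript. Mfap5 alone made up 51.1% of the summed FPKM of the 10 genes in HSF V30M and 45.3% in HSF WT. The sum itself was 563 FPKM in HSF V30M and 575 FPKM in HSF WT, and without Mfap5 it was 275 and 314 FPKM. Every gene but Fbn2 and Mfap4 stood above 89% of all measured genes in both groups, a base that includes 21393 genes at 0 in both groups. The lowest of those 8 values was that of Fbln5 in HSF WT, above 89.5%.

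**Figure D1:**
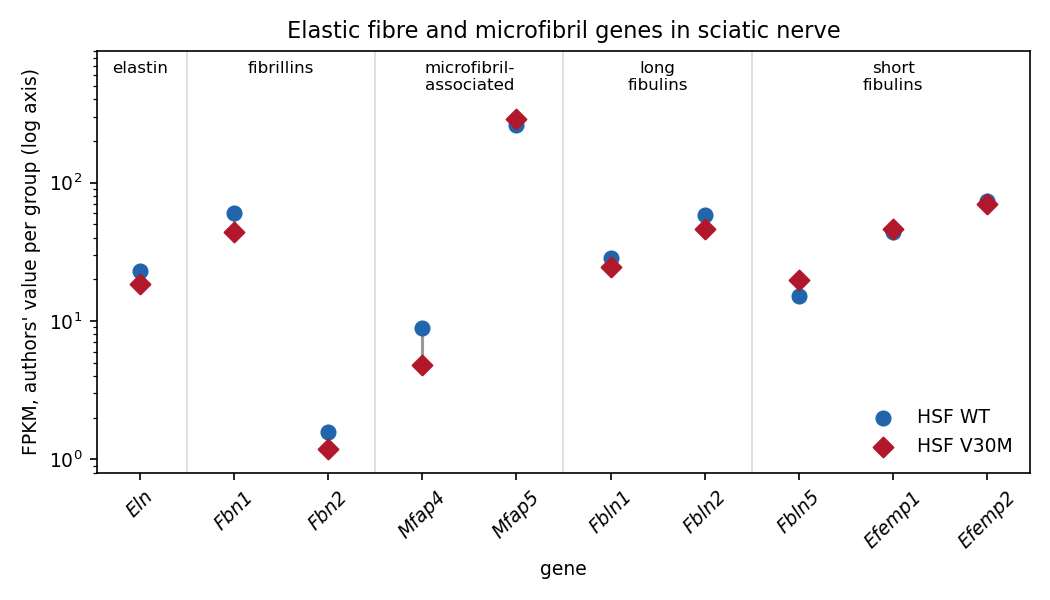
FPKM of each of the 10 genes in HSF WT (circles) and HSF V30M (diamonds) on a log axis, 1 value of the authors per group, joined by a line and set out by role. The points of most genes lie close together, and the widest gap is that of Mfap4, at 8.93 in HSF WT and 4.81 in HSF V30M.

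Between the groups, 7 of the 10 genes were lower and 3 were higher in HSF V30M (1 of the 10 after a rescaling without the 10 genes of highest FPKM), and 1 of the 10, Mfap4, was past the fold, where 16.7% of all genes were. Of the 15620 genes with a mean of at least 1 FPKM, 49.6% had a ratio below 0, 8.44% were lower past the fold and 8.22% were higher past it. A share of 1 in 10 lower and 0 in 10 higher past the fold is near that background, so the calls do not set these genes apart. The median log2 ratio of the 10 genes was -0.22 and their mean was -0.18, where the median over all 15620 genes was 0.00 and the middle 50% of genes lay between -0.22 and 0.23. The ratios of the 10 genes ran from -0.77 for Mfap4 to 0.34 for Fbln5.

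**Figure D2:**
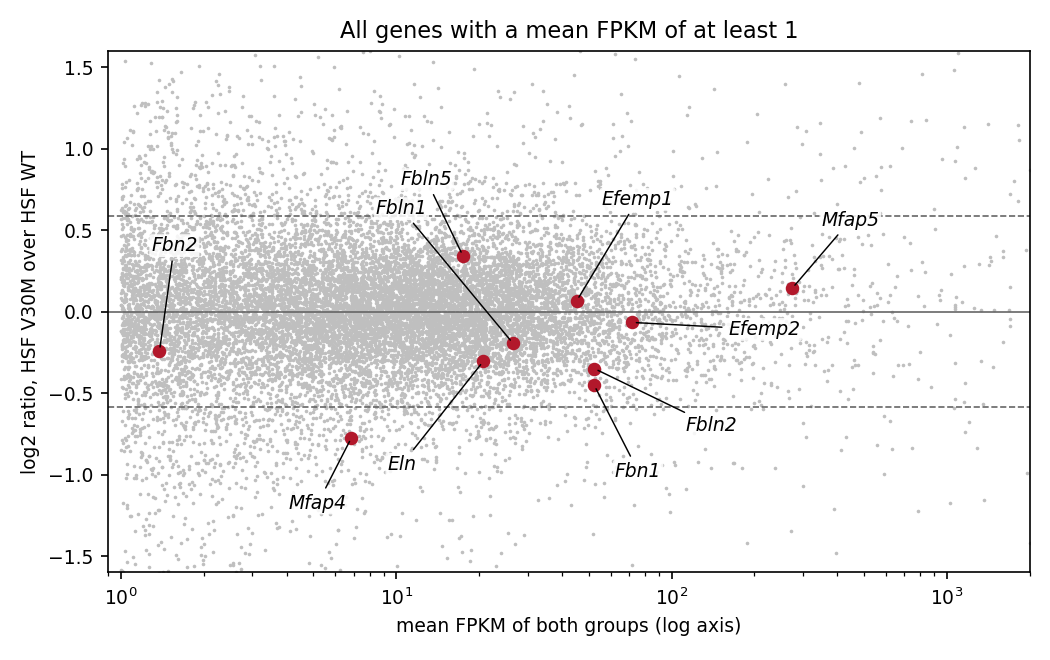
Log2 of HSF V30M divided by HSF WT against the mean FPKM of both groups (log axis) for 15620 genes (grey), with the 10 genes in red and 1.5-fold as dashed lines; 828 genes lie outside the axes. Mfap4, at -0.77, is the single red point beyond the dashed lines.

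Another pseudocount or minimum level cannot turn the sign of a ratio, so that only a rescaling of the groups bears on direction. Mfap5 and Efemp1 went below 0, to -0.15 and -0.22, in the rescaling without the 10 genes of highest FPKM, which include Rny1, Rny3 and several Snord genes of short RNAs. That rescaling moved the median of all genes to -0.26, and in it Fbln5 was the one gene of the 10 above 0. Scaling by median ratios or by protein-coding genes hardly differed from the deposited scale, with factors between 0.992 and 1.01. The ratio of Mfap4 ran from -1.03 to -0.75 over all these settings and that of Fbn1 from -0.74 to -0.43.

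**Figure D3:**
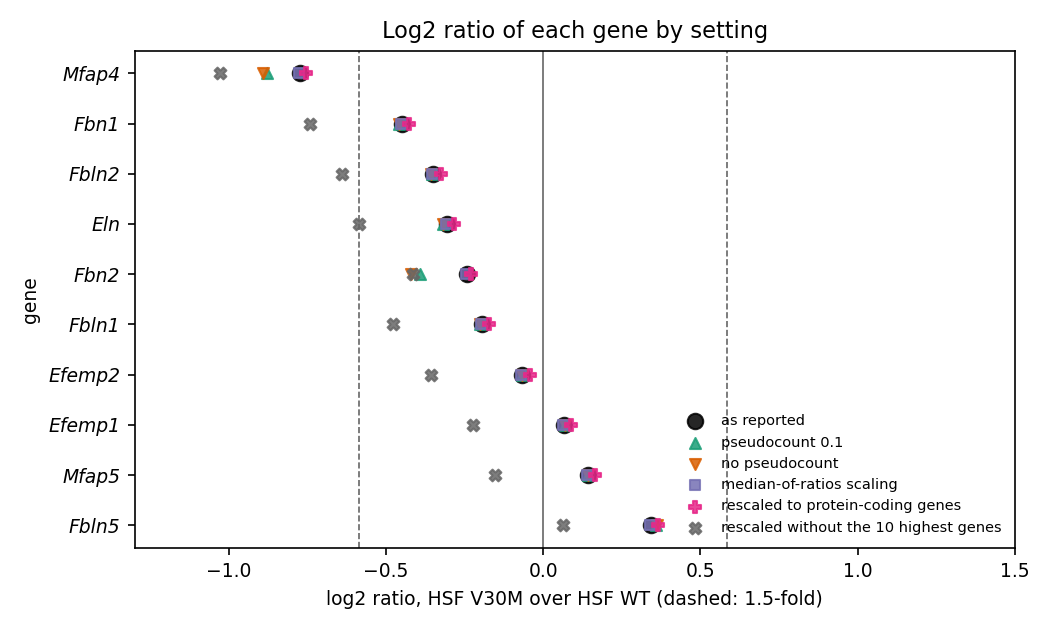
Log2 of HSF V30M divided by HSF WT for each of the 10 genes as reported (black circles) and under 5 other choices of pseudocount or scaling (other symbols), with 1.5-fold as dashed lines. The crosses, for the rescaling without the 10 highest genes, are shifted to the left for all genes, and the other symbols lie close to the circles for every gene except Mfap4 and Fbn2.

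Elastin is the protein of the fibre core, and its gene Eln (ENSMUSG00000029675) spans 134702593 to 134747323 on the minus strand of chromosome 5 (GRCm38), with 37 exons and 3853 bases in its longest coding transcript. All positions of genes are in this build. Eln was at 18.4 FPKM in HSF V30M and 23.0 FPKM in HSF WT, a log2 ratio of -0.31. It was lower in HSF V30M and within the fold. Of all genes, 18.6% had a ratio as low or lower.

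Fibrillins form the backbone of microfibrils, and both measured fibrillin genes were lower in HSF V30M without passing the fold. Fbn1 (ENSMUSG00000027204), the fibrillin gene that is mutated in Marfan syndrome, lies on the minus strand of chromosome 2 from 125300594 to 125507993. Its level was 44.1 FPKM in HSF V30M and 60.6 FPKM in HSF WT, a log2 ratio of -0.45, and 11.9% of all genes had a ratio as low or lower. Fbn2, whose protein is the fibrillin best known from development, was at 1.18 FPKM in HSF V30M and 1.58 FPKM in HSF WT. Its log2 ratio was -0.24, and -0.42 without the added 1 FPKM, which weighs on a gene of so low a level. The balance of both fibrillins was close in the groups: Fbn1 was 37.3 times Fbn2 in HSF V30M and 38.4 times in HSF WT.

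The microfibril-associated genes differed in direction. Mfap4 (ENSMUSG00000042436), which encodes a glycoprotein that binds elastin and microfibrils, lies on the plus strand of chromosome 11 from 61485431 to 61488900, with 6 exons in its longest coding transcript of 1722 bases. Its level was 4.81 FPKM in HSF V30M and 8.93 FPKM in HSF WT, 1.86-fold lower, with a log2 ratio of -0.77. It was the lowest ratio among the 10 genes, and 904 of the 15620 genes, or 5.79%, had one as low or lower. Mfap5 (ENSMUSG00000030116), whose protein binds fibrillin, lies on the plus strand of chromosome 6 from 122505845 to 122529290 and was at 288 FPKM in HSF V30M and 261 FPKM in HSF WT, with a log2 ratio of 0.14 that became -0.15 in the rescaling without the 10 highest genes. Mfap5 was therefore 59.8 times Mfap4 in HSF V30M and 29.2 times in HSF WT. This ratio within a group does not depend on how the groups were scaled to each other, and it was 2.05-fold higher in HSF V30M.

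The long fibulins Fbln1 and Fbln2, which encode proteins of basement membranes and elastic fibres, were both lower in HSF V30M within the fold. Fbln2 (ENSMUSG00000064080, chromosome 6 from 91212455 to 91272540, plus strand) was at 45.9 FPKM in HSF V30M and 58.8 FPKM in HSF WT, a log2 ratio of -0.35. Fbln1 (ENSMUSG00000006369, chromosome 15 from 85205949 to 85286535, plus strand) was at 24.7 and 28.4 FPKM, a log2 ratio of -0.19. Summed, the long fibulins made up 12.5% of the 10 genes in HSF V30M and 15.2% in HSF WT.

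The short fibulins take part in the assembly of elastic fibres, and they included the gene with the highest ratio. Fbln5 (ENSMUSG00000021186), whose protein links elastin to microfibrils and to cell surface integrins, lies on the minus strand of chromosome 12 from 101746565 to 101819055. It was at 19.6 FPKM in HSF V30M and 15.3 FPKM in HSF WT, 1.28-fold higher, with a log2 ratio of 0.34, and 17.2% of all genes had a ratio as high or higher. Efemp1, or fibulin-3 (ENSMUSG00000020467, chromosome 11 from 28853204 to 28926743, plus strand), was at 46.3 FPKM in HSF V30M and 44.2 FPKM in HSF WT, a log2 ratio of 0.07, or -0.22 in that rescaling. Efemp2, or fibulin-4, which binds the precursor of lysyl oxidase (ENSMUSG00000024909, chromosome 19 from 5473954 to 5482517, plus strand), was at 70.2 and 73.6 FPKM, a log2 ratio of -0.07. Both were nearly level between the groups. Together the short fibulins made up 24.2% of the summed FPKM in HSF V30M and 23.1% in HSF WT.

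The order of levels was similar in both groups, and the genes that traded places were those near each other in level. Counted from the highest, Mfap5 had rank 1, Efemp2 rank 2, Fbln2 rank 4, Fbln1 rank 6, Mfap4 rank 9 and Fbn2 rank 10 in both. Fbn1 had rank 3 in HSF WT and rank 5 in HSF V30M, and Efemp1 the reverse. Eln had rank 7 and Fbln5 rank 8 in HSF WT, and these ranks were swapped in HSF V30M. With 1 value per group, no spread shows which neighbours in this order differ. Fbln5 was accordingly at 1.07 times Eln in HSF V30M and at 0.665 times Eln in HSF WT. The level of Fbln5 divided by that of Fbn1 was 0.446 for HSF V30M and 0.252 for HSF WT, 1.77-fold higher for HSF V30M. These pairs, and that of Mfap5 and Mfap4, were picked after the values had been seen and carry no test.

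The depth behind each value was read from its smallest steps. In genes with 1 transcript and no overlapping gene, the lowest FPKM values multiplied by transcript length pile up at what 1 fragment is worth. With 200 bases taken from the length, the correction that aligned them best in HSF WT, 99.9% of 1001 values in the range of a single fragment lay within 3% of 1 of 2 worths, 0.0481 and 0.0648 FPKM for a length of 1 kilobase. The HSF V30M column has no more than 2 decimals, and there 88.5% of 419 such values lay within 7.5% of 0.039 or 0.0458 FPKM, a weaker check. Read on the longest coding transcript, this placed Mfap4 at 160 to 188 fragments in HSF V30M and 210 to 283 in HSF WT, and Fbn2 at 279 to 328 and 264 to 356. Fbn1, the long transcript with the most fragments, had 11314 to 13298 and 11013 to 14828. From the lower end of each range, exact binomial 95% intervals (Clopper-Pearson) were set around the log2 ratio without the added 1 FPKM. They included 0 for Efemp1, at -0.04 to 0.17, and for Efemp2, at -0.14 to 0.00402. The interval was -1.20 to -0.59 for Mfap4, -0.50 to -0.42 for Fbn1, -0.67 to -0.17 for Fbn2 and 0.26 to 0.46 for Fbln5. They cover counting error only, compare these libraries rather than the genotypes, and would be wider if shorter transcripts gave the fragments.

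Some of the 10 genes share sequence with a neighbour, and whether reads were counted by strand is not stated. Mfap4 overlaps Mapk7, a kinase gene on the opposite strand, by 89 bases. Mapk7 was at 13.1 FPKM in HSF V30M and 7.61 FPKM in HSF WT, the opposite direction to Mfap4. Fbn1 overlaps Gm9913 on the opposite strand, which holds 19.7% of the different 50-base words of the Fbn1 transcripts and was at 0.980 and 1.20 FPKM. Of the 50-base words of the other genes, at most 2.92% were found in transcripts of another gene, and none of those of Fbln1, Fbln2, Fbln5, Mfap5 and Efemp1. None of the 10 genes shared such a word with another of them.

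The wider elastic fibre pathway was read in 8 lists of 53 genes, of which 49 had a mean of at least 1 FPKM. Of these 49, 3 were higher and 7 lower past the fold. Of all genes, 8.22% were higher and 8.44% lower past it, so the pathway share was above that background for lower genes and below it for higher genes. This difference in shares was not tested. In the cross-linking list, 1 of 5 genes was past the fold. Loxl4, a lysyl oxidase-like enzyme, was at 4.74 FPKM in HSF V30M and 1.76 FPKM in HSF WT, a log2 ratio of 1.06. Lox, the main lysyl oxidase and the highest gene of the list, was at 32.9 and 22.1 FPKM, a log2 ratio of 0.55 within the fold. The ratios of Loxl1, Loxl2 and Loxl3 lay between -0.34 and -0.03. Lox was thus 1.79 times Eln in HSF V30M and 0.960 times Eln in HSF WT, a ratio that scaling of the groups does not affect. This pair was also picked after the values had been seen and carries no test.

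Among the ADAMTS and ADAMTS-like genes, whose proteins bind fibrillin microfibrils or act on them, 2 of 7 were higher past the fold. The median log2 ratio of these genes was 0.25, or -0.03 in the rescaling without the 10 highest genes and 0.42 with a minimum mean of 5 FPKM. Adamtsl5, the highest of them, was at 71.0 FPKM in HSF V30M and 43.4 FPKM in HSF WT, and Adamts10 was at 28.9 and 17.5 FPKM, each with a log2 ratio of 0.70. Thsd4, or ADAMTSL6, with 27.8 and 18.3 FPKM, was just within the fold at 0.58. The other 4 genes ran from -0.44 for Adamts17 to 0.25 for Adamtsl3.

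Of 7 other microfibril and fibulin family genes, 1 was lower past the fold, and their median log2 ratio was -0.49, or -0.41 with a minimum mean of 5 FPKM, which leaves out Mfap1a and Mfap1b. In the rescaling without the 10 highest genes this median was -0.71. Mfap2, which encodes the microfibril-associated glycoprotein closest to that of Mfap5, was at 7.21 FPKM in HSF V30M and 11.4 FPKM in HSF WT, a log2 ratio of -0.59. Fbln7 was at 18.1 and 27.2 FPKM with a log2 ratio of -0.56. Mfap3l, the highest of the list, was at 45.1 and 44.1 FPKM, and Hmcn1 was below 1 FPKM in both groups. Mfap1a and Mfap1b, with log2 ratios of -0.49 and -0.56, are near-identical copies whose protein is known as a part of the splicing machinery rather than of microfibrils, so the split between them is uncertain and they do not speak for the matrix.

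Proteases that can cut elastin were lower in HSF V30M in all 7 genes of that list with a mean of at least 1 FPKM, with 3 of them past the fold. The median log2 ratio was -0.55, or -0.81 in the rescaling without the 10 highest genes. Ctss, a cysteine protease of macrophages and other antigen-presenting cells, was at 44.4 FPKM in HSF V30M and 68.2 FPKM in HSF WT. Mmp9 was at 5.12 and 8.37 FPKM and the macrophage elastase Mmp12 at 2.21 FPKM in HSF WT and under 1 FPKM in HSF V30M. The log2 ratios of Ctss, Mmp9 and Mmp12 were -0.61, -0.61 and -0.80. Mmp2, the highest of the list, was at 126 and 159 FPKM, a log2 ratio of -0.33, and Mmp14, Ctsk and Ctsl lay between -0.55 and -0.12. Elane, the neutrophil elastase, was under the minimum, at 0.780 and 0.0826 FPKM, and Mmp7 was listed at 0 in both groups.

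The 4 latent transforming growth factor beta binding genes had a median log2 ratio of 0.01 (-0.27 in the rescaling without the 10 highest genes and 0.12 with a minimum mean of 5 FPKM). These proteins keep the growth factor in the matrix. Ltbp2 was lower past the fold, at 1.81 FPKM in HSF V30M and 3.44 FPKM in HSF WT, while Ltbp4, the highest, was at 50.3 and 43.4 FPKM. The emilins and multimerins, glycoproteins found at elastic fibres and endothelium, had none of 4 genes past the fold and a median of 0.01 (-0.26 in that rescaling). Mmrn2, the highest of them, was at 16.2 FPKM in HSF V30M and 16.0 FPKM in HSF WT.

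Among 11 receptor and ligand genes 1 was past the fold, and the median log2 ratio was 0.07, or -0.22 in that rescaling. Tgfbr1, a receptor for transforming growth factor beta, was at 7.31 FPKM in HSF V30M and 12.7 FPKM in HSF WT, a log2 ratio of -0.72. The partner receptor Tgfbr2 was at 64.3 and 64.4 FPKM, and the ligand Tgfb3 at 34.1 and 23.6 FPKM, a log2 ratio of 0.52. The ligands Tgfb1 and Tgfb2 had log2 ratios of 0.07 and -0.23. Itgav, an integrin chain that binds fibrillin and fibulin-5 and the highest gene of the list, was at 93.5 and 84.0 FPKM. Of the 4 proteoglycan genes, Bgn, which encodes biglycan, was lower past the fold at 116 FPKM in HSF V30M and 221 FPKM in HSF WT, and Dcn, the highest of the 53 pathway genes, was at 1331 and 1320 FPKM.

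**Figure D4:**
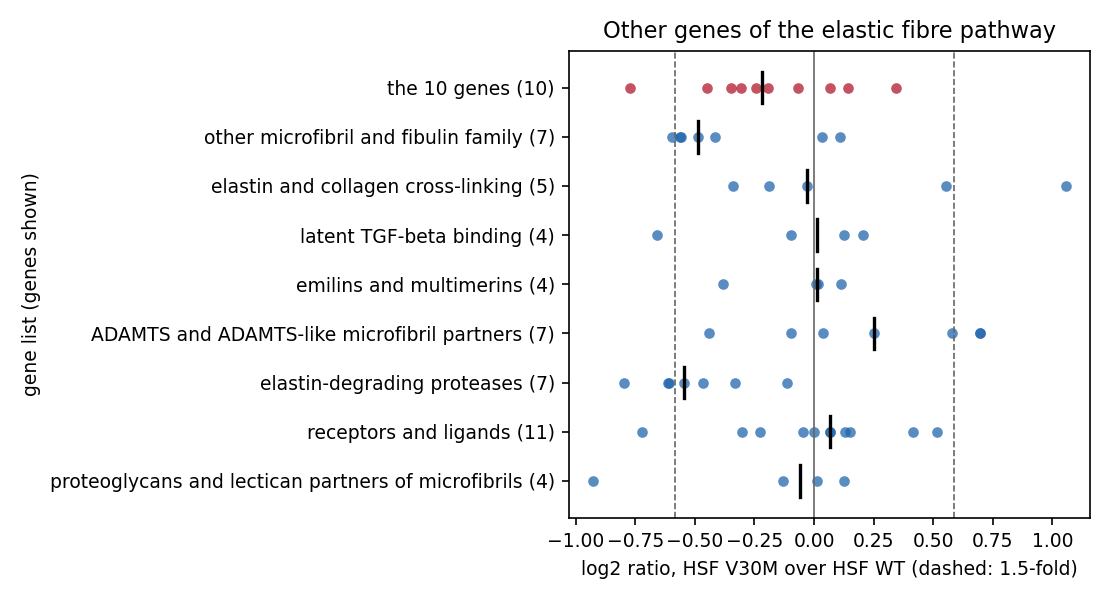
Log2 of HSF V30M divided by HSF WT for the 10 genes (red) and for the genes of 8 pathway lists with a mean of at least 1 FPKM (blue), 1 point per gene, with black bars at the medians and 1.5-fold as dashed lines. All 7 protease genes lie below 0, and the median of the ADAMTS list, 0.25, is the highest.

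Markers of the cells that could hold these transcripts had ratios in both directions. In a bulk sample, fewer cells of a type and less RNA per cell cannot be told apart. Fibroblasts are a known source of elastic fibre proteins, and of 6 fibroblast genes 1 was lower past the fold. Their median log2 ratio was -0.30 (-0.59 in the rescaling without the 10 highest genes). Their summed level was 909 FPKM in HSF V30M and 1012 FPKM in HSF WT. The gene past the fold was Dpt, at 33.7 FPKM in HSF V30M and 64.7 FPKM in HSF WT, while Col1a2, the highest by mean, was at 314 and 287 FPKM. All 6 epineurial fibroblast genes had a ratio below 0, with a median of -0.33 (-0.60 in that rescaling) and a summed level of 215 and 287 FPKM. Pi16 and Sfrp2 were lower past the fold. Pi16 was at 42.4 FPKM in HSF V30M and 83.0 FPKM in HSF WT. The endoneurial list had a median of 0.28 over 5 genes (0.01 in the rescaling without the 10 highest genes and 0.10 with a minimum mean of 5 FPKM), with Wif1 higher past the fold at 5.16 and 1.30 FPKM.

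Smooth muscle of vessel walls also makes elastin. Of its 6 marker genes, Tagln and Myh11 were lower and Cnn1 higher past the fold, the median log2 ratio was -0.10 (-0.38 in that rescaling and -0.45 with a minimum mean of 5 FPKM), and the summed level was 650 FPKM in HSF V30M and 1279 FPKM in HSF WT, most of it Tagln at 472 and 1102 FPKM. Perineurial, pericyte and endothelial lists had medians of 0.26, 0.14 and 0.12 (-0.04, -0.10 and -0.15 in the rescaling without the 10 highest genes), with Rgs5 and Cldn5 higher past the fold. The endothelial list was split, with 3 genes above 0 and 3 below it, from -0.33 for Pecam1 to 0.78 for Cldn5. With a minimum mean of 5 FPKM the pericyte median was 0.57, from Pdgfrb, Notch3 and Rgs5 alone. That minimum left out Abcc9, with a log2 ratio of -0.23, and Kcnj8, with 0.14. The perineurial and endothelial medians were unchanged by it. Of the Schwann cell markers, which sciatic nerve tissue should hold, S100b was higher past the fold, at 328 FPKM in HSF V30M and 201 FPKM in HSF WT. It had the highest ratio of that list, whose log2 ratios ran from -0.12 to 0.71.

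Several markers of blood cells and of tissue that lies against the nerve had ratios outside the range of the 10 genes. All 5 skeletal muscle genes with a mean of at least 1 FPKM (Myh4, Ckm, Mylpf, Acta1 and Tnnt3) were lower past the fold in HSF V30M, with a median log2 ratio of -2.03 and a summed level over the list of 39.1 FPKM in HSF V30M and 143 FPKM in HSF WT. The B cell genes Cd79a, Cd79b and Cd22 were each lower past the fold, with log2 ratios of -2.29, -2.42 and -2.07. Adipocyte genes had a median of -0.41, with Lep and Adipoq lower past the fold, and macrophage genes one of -0.45, with Cd68 lower past it. In the rescaling without the 10 highest genes these medians were -0.70 and -0.74. The adipocyte sums were 1976 and 2638 FPKM and the macrophage sums 330 and 452 FPKM. Neutrophil genes were higher past the fold in 5 of 5 (S100a9, Ngp, Camp, S100a8 and Ltf), with summed levels of 101 and 24.7 FPKM, and erythrocyte genes in 3 of 4 (Hbb-bt, Hbb-bs and Slc4a1), with 137 and 45.2 FPKM. Of 3 tendon and cartilage genes above the minimum, Comp was lower past the fold, while Fmod and Col2a1 had log2 ratios of 0.01 and 0.37. The median of these 3 genes was 0.01 (-0.27 in the rescaling without the 10 highest genes and -0.36 with a minimum mean of 5 FPKM). Acan, Tnmd and Scx were under 1 FPKM in both groups. No marker was at 0 in either group, and the part of these tissues in the levels of the 10 genes was not tested.

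**Figure D5:**
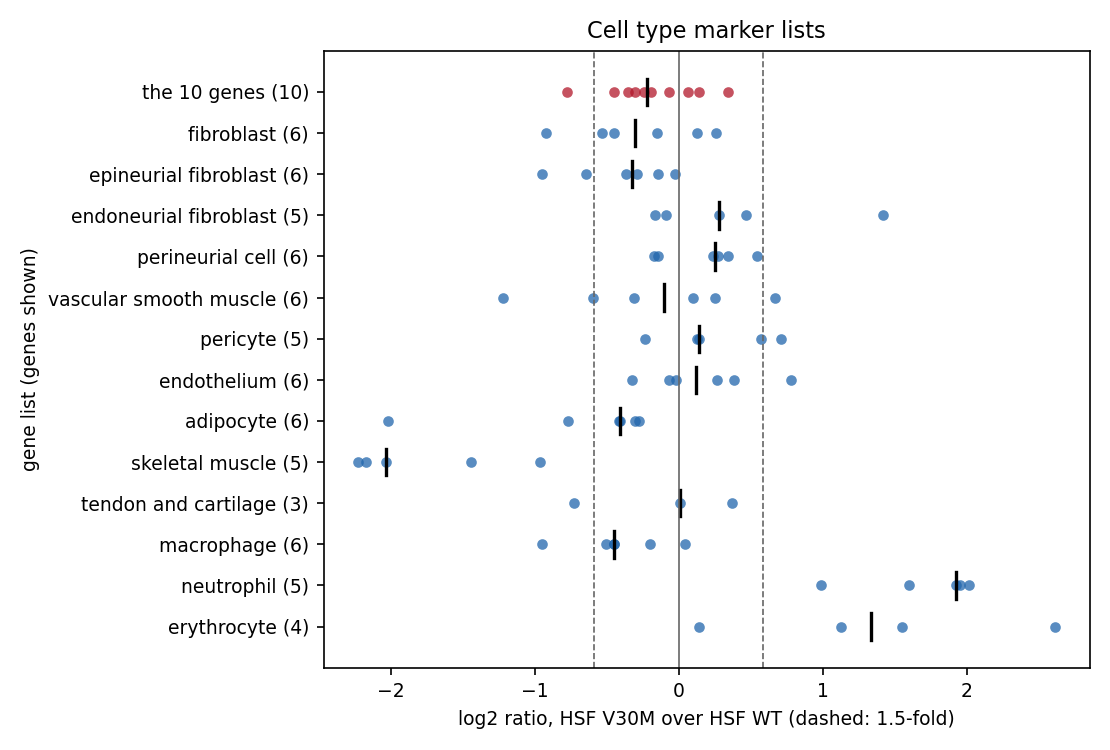
Log2 of HSF V30M divided by HSF WT for the 10 genes (red) and most cell type marker lists, in genes with a mean of at least 1 FPKM (blue), 1 point per gene, with black bars at the medians and 1.5-fold as dashed lines. The skeletal muscle median, -2.03, and the neutrophil median, 1.93, lie far outside the range of the 10 genes.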

How the data were processed

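RNA of sciatic nerve was sequenced by the authors from Ion Torrent libraries, and reads were aligned to GRCm38. The submitters' processing notes name STAR, Cufflinks and Cuffdiff without a version, and the annotation and options are not given in the sources used here. The authors deposited 1 Cuffdiff table with 1 FPKM value per gene and group. Its log2 fold change, test statistic, p-value and q-value columns hold the authors' own comparison and were not used. Decimal commas were turned into points, and columns were addressed by position because the header is incomplete. Columns labelled A and G were matched to the titles of the HSF V30M and HSF WT samples. Cuffdiff gave no estimate for 23 of the 50593 genes because of their many alignments, and these were dropped.

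From these values, log2((HSF V30M + 1) / (HSF WT + 1)) was computed for the 15620 genes whose mean reached 1 FPKM, and genes past 1.5-fold were counted. No test between mice was run, since the values used hold none per mouse. The 10 genes and all lists were chosen with earlier results of these data known. The genes named are the 10 genes and, from each list, those past the fold and the highest gene, except for results that are not reported here. Positions, transcripts and overlaps are from GENCODE M21 (GRCm38), which holds 50369 of the gene identifiers. Promoter windows of the RefSeq table were read for 6 of the 10 genes, 10 windows in all, without Eln, Fbn2, Mfap4 and Mfap5. Alternatives were a pseudocount of 0.1 or none, 3 other scalings, no minimum or a mean of at least 5 FPKM, and a higher and a lower fold threshold. Computation used scipy 1.17.1 with numpy 2.4.6 and pandas 2.3.3 under Python 3.11.15, and figures were drawn with matplotlib 3.10.9.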

Additional observations from a re-analysis of the deposited data

How the results depend on the processing

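No paired analysis was possible because each group has a single value, which also means that leaving out a replicate, and the model across genes planned for values per mouse, could not be run. The median log2 ratio of the 10 genes, -0.22 as reported, was -0.45 after rescaling without the 10 genes of highest FPKM, and 4 genes were then lower past the fold, where 17.5% of all genes were. That rescaling moves the median of all genes to -0.26. The median of the 10 genes relative to it, which by construction returns nearly to the deposited scale, was -0.19. With a fold of 2, 0 of the 10 genes were lower and 0 higher, where 3.94% and 3.98% of all genes were. With the lower fold threshold, 3 of the 10 genes were lower and 1 higher, where 17.7% and 18.4% of all genes were. These changes in the counts follow from the threshold, and the differences in shares were not tested. Under the other settings the count stayed at 1 lower and 0 higher. Of 160 list medians computed under other settings, 9 changed sign, in 8 of the 23 lists, 8 of the 9 in the rescaling without the 10 highest genes. The values used give no spread between mice, so no precision between the genotypes is given here.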
